A study of Phanerodontia chrysosporium with 8 samples.

Results

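Of 12746 gene models with a level in the deposited expression matrix of the white-rot fungus Phanerodontia chrysosporium, 74 were short models whose level was lower in both fruiting stages than in the vegetative mycelium. A gene model is an annotated stretch of the genome, known here only by its JGI number. The members were chosen by a fixed rule on length and level. A member was one of the 1341 shortest of these models and had a mean of at least 2 on the log2 RPKM scale in mycelium, which is 4 RPKM (a read density corrected for the length of the model and the depth of the library). Its mean in young fruiting bodies was lower than in mycelium by at least 1.5 on the log2 scale, which is 2.83-fold, and the median of its fruiting body libraries lay within 1 of the young fruiting body mean. These levels chose the members, so their differences between stages are described below without a test, and nothing is inferred from them.

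Strain RP-78, the source of all 8 libraries, grew without light at 37 °C over 7 days, on cellophane laid on an agar of glucose, malt, peptone and yeast extract. It fruited in a humid chamber at 25 °C under dim light. Polyadenylated RNA was sequenced from vegetative mycelium (n = 3), from young fruiting bodies (n = 2), which are compact initials with a sharp edge, and from fruiting bodies that had begun to shed spores (n = 3). No gene was altered and no agent was added in any group. The labels do not say whether mycelium was collected before or after that change of conditions. If before, stage, temperature, light, moisture and age cannot be told apart in any comparison with mycelium.

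Vegetative mycelium is the feeding form of such a fungus, a mat of hyphae that secretes enzymes and other proteins into its substrate. A fruiting body is built from hyphae that aggregate and change in form, and it bears the cells that make spores. Short models in a fungal annotation can encode small secreted proteins, structural proteins of the hyphal surface, ribosomal and other small conserved proteins, or can be fragments of longer genes. The files pair no member with a product or a sequence, so no function is given to any of them, and the labelled stages could not be checked against marker genes.

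Libraries held 16144543 to 35837246 unique gene reads, and non-unique reads made up 0.447 to 0.638% of the gene reads. Among the fruiting bodies, replicate 3 was unlike the others. Its correlation with fruiting body replicates 1 and 2 over all models was 0.894 and 0.914 on the log2 CPM scale (counts corrected for library depth alone), against 0.983 between those replicates. Over the 74 members the same correlations of deposited log2 RPKM were 0.678 and 0.715, against 0.949. These are correlations across models, which are not independent replicates. Replicates 1 and 3 of the fruiting body were alone on their flowcell, and replicate 2 was run with all the mycelium and young fruiting body libraries. Results that rest on replicate 3 are given with and without it.

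Of 1341 short models in the matrix, 137 (10.2%) were lower in young fruiting bodies by the required amount, and 102 of these also reached the mycelium level. Among those 102, the fruiting body median was close to the young fruiting body mean in 74 and at least 2-fold above it in 28, and in 0 was it as far below. Of the 11405 longer models, 847 met the same limits on the fall and the mycelium level. In 681 (80.4%) of these the fruiting body stayed close to the young fruiting body, in 131 it was higher again and in 35 lower still. The members were 5.52% of the short models, and longer models of the same shape were 5.97% of the longer ones. The difference between these shares was not tested.

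**Figure D1:**
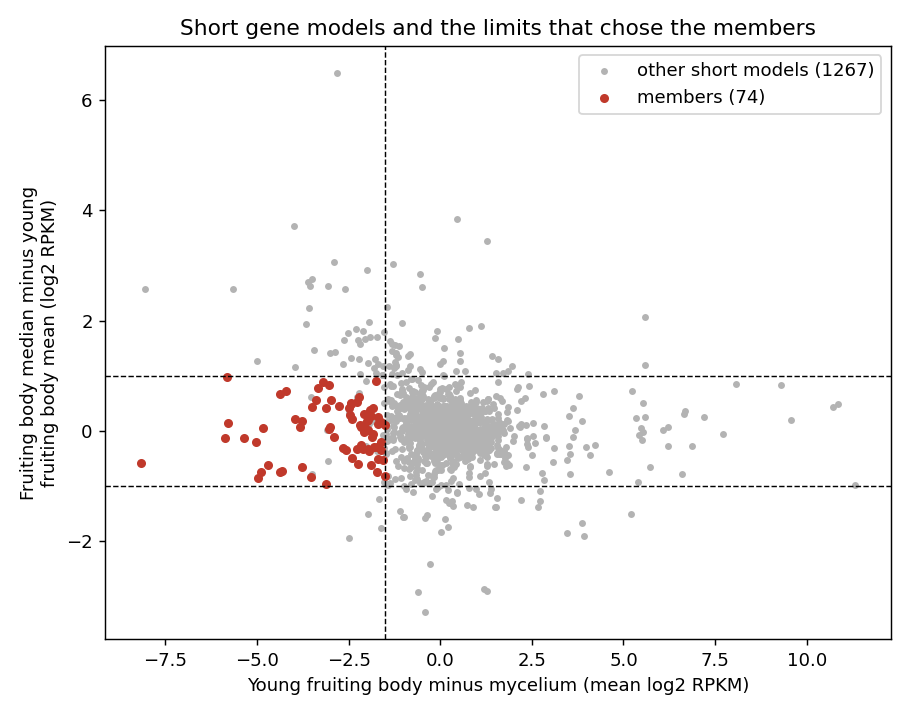
Each point is 1 of the 1341 short gene models, with the young fruiting body minus mycelium difference (mean log2 RPKM) on the x axis and the fruiting body median minus the young fruiting body mean on the y axis. Dashed lines are the limits at -1.5 and at 1 and -1, and the 74 members in red fill the region left of and between them, apart from models under the mycelium limit of 2.

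The members ranged from 159 bases up to the length limit, with a median of 411.5, and 12 were at most 300 bases long. In 61 of 74 (82.4%) the length was divisible by 3, beside 76.8% of all short models, 62.8% of all models in the matrix and 66.5% of the longer models of the same shape. All reads were unique in 69 members (93.2%, beside 85.3% of all short models), and over 1% of the reads were not unique in 3. The largest shares were 7.15% in model 2873447 and 2.76% in model 2898381. Model 2873447 (207 bases) stood at 70.6, 193 and 124 RPKM in mycelium replicates 1, 2 and 3, at 13.3 and 36.7 in the young fruiting bodies, and at 25.6, 31.3 and 54.4 in the fruiting bodies. Model 2898381 (471 bases) stood at 19.4, 14.4 and 17.8 RPKM in mycelium, 3.37 and 4.74 in young fruiting bodies, and 2.79, 4.97 and 8.59 in fruiting bodies. In both models every mycelium library lay above every fruiting library. All RPKM values here are the authors' deposited values taken off the log2 scale.

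The median member was at 48.4, 50.4 and 64.2 RPKM in mycelium replicates 1, 2 and 3. It was at 5.33 and 6.05 RPKM in young fruiting bodies 1 and 2, while fruiting body replicates 1, 2 and 3 had it at 5.71, 6.84 and 14.7. Over all models of the matrix the library medians lay between 20.0 and 22.1 RPKM. In 19 members the mycelium mean lay at 4 to 16 RPKM, below these medians. The difference between young fruiting body and mycelium ran from -8.17 to -1.503 (log2) over the members, with a median of -2.41, where the rule allowed none above -1.5. The fruiting body minus mycelium difference had a median of -2.38, against 0.01 over all models.

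**Figure D2:**
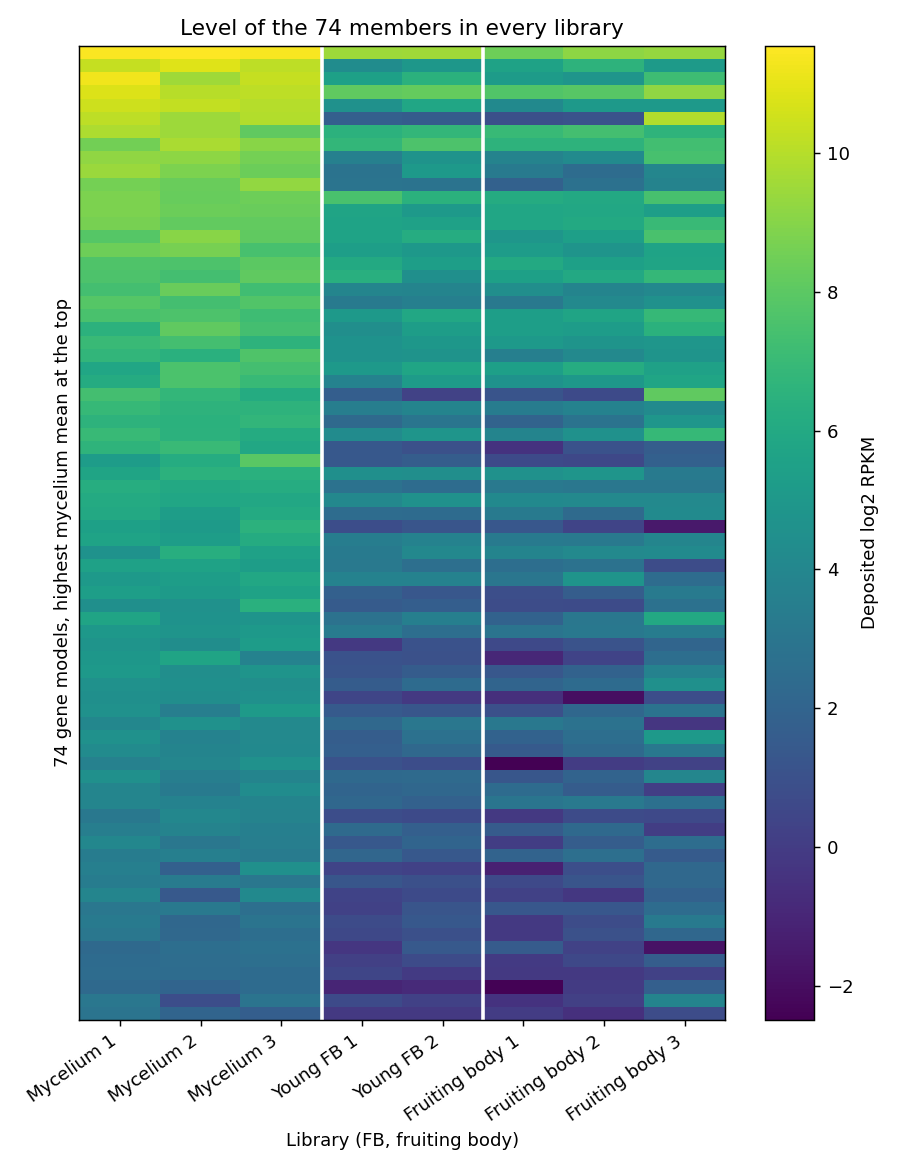
Each row is 1 of the 74 members, sorted by its mycelium mean, and each column 1 library, with colour giving the deposited log2 RPKM. The 3 mycelium columns are brighter than the other 5 in most rows, and single rows in fruiting body replicate 3 are as bright as in mycelium.

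Few members were silent in fruiting, and few of all models were. The young fruiting body mean was below 1 RPKM in 2 of 74 members (2.70%), beside 4.87% of all models. The fruiting body median was below 1 RPKM in 3 (4.05%), beside 5.60%. In all 5 fruiting libraries 0 members were below 1 RPKM, beside 2.34% of all models. In 56 members (75.7%) each of the 5 fruiting libraries was at or above 1 RPKM. The same held for 82.7% of all short models and 91.2% of all models. The young fruiting body mean was at least 10 RPKM in 31 members (41.9%) and at least 64 RPKM in 5 (6.76%). These shares were below the 66.4 and 20.1% of all models. The rule required a fall, so these backgrounds are not a like comparison. In longer models of the same shape the young fruiting body mean was below 1 RPKM in 1.76%. It was at least 10 and 64 RPKM in 43.6 and 7.05% of them. Their fruiting body median was below 1 RPKM in 1.47%, and all 5 fruiting libraries were at or above 1 RPKM in 92.8%. As few members were below 1 RPKM, they are described as lower in fruiting, and not as lost. Depth limits the lowest of these levels: 23 members had fewer than 10 unique reads in at least 1 library. In 18 of the 23, fruiting body replicate 1 was such a library, while 0 members had a library without a read. The other 51 members (68.9%) had at least 10 unique reads in every library, beside 74.8% of all short models.

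The most abundant members stood in a group of 9 with a mycelium mean, taken off the log2 scale, of at least 512 RPKM. Model 2965982 (324 bases) was the highest. It stood at 2804, 2985 and 2694 RPKM in mycelium (2828 ± 147, SD, n = 3), at 712 and 749 in young fruiting bodies (731 ± 26.7, SD, n = 2), and at 352, 570 and 649 in fruiting bodies (524 ± 154, SD, n = 3). Its difference between young fruiting body and mycelium was -1.95 (log2), and it had the highest mean of all members in mycelium and young fruiting bodies and the highest median in fruiting bodies. In fruiting body replicate 3 model 2969168, at 968 RPKM, stood above it. Model 2965982 took 14.4% of all member reads in mycelium replicate 3, and 28.9 and 27.2% in the young fruiting bodies.

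Model 2983610 (514 bases) likewise remained abundant. It stood at 1793, 1046 and 1125 RPKM in mycelium, 275 and 298 in young fruiting bodies, and 211, 240 and 586 in fruiting bodies. Model 2966743 (474 bases) varied more among mycelium libraries, at 2378, 751 and 1249 RPKM, and stood at 44.3 and 89.9 in young fruiting bodies and 37.5, 28.8 and 145 in fruiting bodies. In both models fruiting body replicate 3 was the highest fruiting library, and still below every mycelium library.

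Model 2989103 lay at the length limit. It stood at 1285, 1878 and 1136 RPKM in mycelium (1433 ± 393, SD, n = 3), at 20.0 and 30.8 in young fruiting bodies (25.4 ± 7.66, SD, n = 2), and at 48.7, 95.2 and 35.6 in fruiting bodies (59.9 ± 31.3, SD, n = 3). All 3 fruiting body libraries lay above both young fruiting body libraries, and this model was the nearest member to the limit on steadiness, with a fruiting body minus young fruiting body difference of 0.97 (log2). Model 3017891 (492 bases) stood at 1438, 1204 and 1014 RPKM in mycelium, 24.4 and 56.6 in young fruiting bodies, and 17.7, 32.5 and 33.9 in fruiting bodies. Its fruiting body libraries overlapped its young fruiting body libraries.

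The other members of that abundant group fell into 2 kinds. Model 2899206, at 192 bases the second shortest member, stood at 375, 856 and 520 RPKM in mycelium, 112 and 196 in young fruiting bodies, and 95.8, 97.4 and 157 in fruiting bodies. Model 3030353 (324 bases), named after its values were seen, stood at 918, 731 and 277 RPKM in mycelium and kept to 93.3 to 164 RPKM over the 5 fruiting libraries. Model 3027673 (261 bases), also named afterwards, stood at 584, 581 and 398 RPKM in mycelium, 12.5 and 26.0 in young fruiting bodies, and 13.7, 18.7 and 175 in fruiting bodies, where replicate 3 stood apart from the other 2. The remaining abundant member, model 2969168, is described with the largest differences.

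The size of the difference varied widely among members. It was at least 32-fold in 6, 16- to 32-fold in 8, 8- to 16-fold in 14, 4- to 8-fold in 23, and below 4-fold in 23. The median mycelium mean was 674 RPKM in the members with at least a 32-fold difference and 19.1 RPKM in those below 4-fold. The young fruiting body medians of these 2 classes were closer, at 5.25 and 6.27 RPKM. Over the 74 members the mycelium mean and the log2 difference correlated at r = -0.41, a description only, since both contain the mycelium level. Length and the log2 difference correlated at -0.06.

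In 4 of the 6 largest differences every fruiting library lay below every mycelium library. Models 2989103 and 3017891, given above, differed by -5.82 and -5.02 (log2) between young fruiting body and mycelium. Model 3032452 (405 bases) stood at 396, 324 and 624 RPKM in mycelium (448 ± 156, SD, n = 3), at 7.52 and 7.11 in young fruiting bodies, and at 3.70, 6.70 and 13.9 in fruiting bodies, a difference of -5.88. Model 2990204 (366 bases) stood at 101, 131 and 60.5 RPKM in mycelium, 2.64 and 1.95 in young fruiting bodies, and 0.753, 2.09 and 3.19 in fruiting bodies, a difference of -5.35. The lowest of these values rests on 4 unique reads, in fruiting body replicate 1. Fruiting levels thus differed among the 4, with model 2989103 reaching 95.2 RPKM in fruiting body replicate 2.

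The other 2 of the 6 largest differences did not hold in fruiting body replicate 3. Model 2969168 (456 bases) had the largest difference between young fruiting body and mycelium, at -8.17 (log2). It stood at 1113, 712 and 975 RPKM in mycelium and at 3.4 and 2.99 in young fruiting bodies. Fruiting body replicates 1 and 2 had it at 1.95 and 2.13 RPKM, but replicate 3 had it at 968, within the range of the mycelium libraries. These levels rest on 42 and 31 unique reads in young fruiting bodies, and on 14, 23 and 8133 in the fruiting bodies in replicate order.

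Model 1610752 (488 bases) stood at 165, 114 and 70.5 RPKM in mycelium and at 3.25 and 1.20 in young fruiting bodies. The first 2 fruiting body replicates had it at 2.20 and 1.57 RPKM. In replicate 3 it stood at 282 RPKM, above every mycelium library. Because the rule used the median of the fruiting body libraries, a level in replicate 3 alone did not remove a model from the set. In the fit of all 8 libraries (edgeR) the fruiting body against mycelium log2 fold change was -1.53 ± 1.73 (SE) for model 2969168 and -0.29 ± 1.49 (SE) for model 1610752. Without replicate 3 these values were -8.87 and -6.01.

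**Figure D3:**
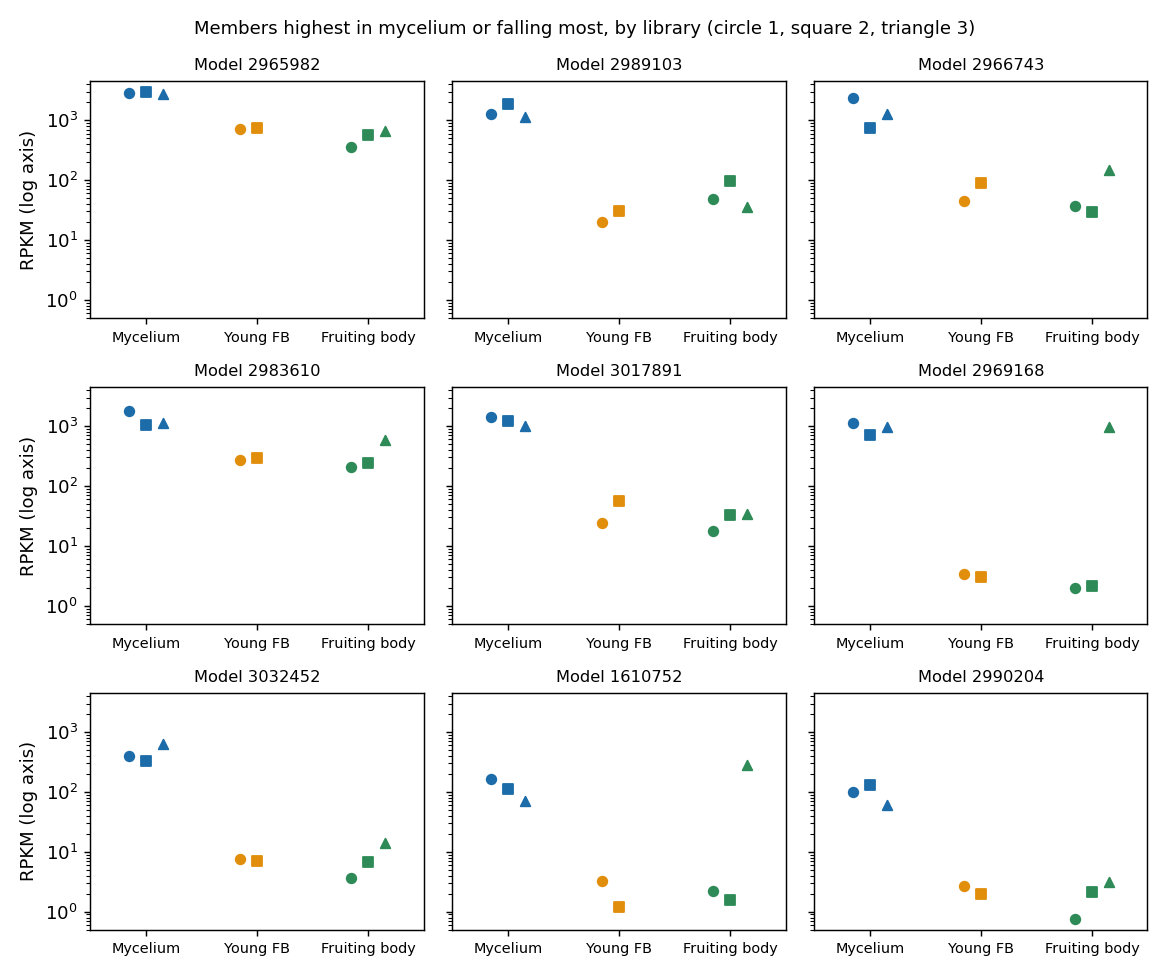
Each panel is 1 of the 9 members that were highest in mycelium or had the largest difference, with stage on the x axis and deposited RPKM on a log axis, and points for replicates 1 (circle), 2 (square) and 3 (triangle). Models 2969168 and 1610752 have 1 fruiting body triangle at or above the mycelium points, at 968 and 282 RPKM, while the other 7 have every fruiting point below every mycelium point.

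Replicate 3 was the highest fruiting body library in 54 of 74 members and the lowest in 15. It lay at least 4-fold above the mean of replicates 1 and 2 (on the log2 scale) in 18 members (24.3%), and at least 4-fold below in 3. Those shares were 4.50 and 2.14% over all models of the matrix, and 7.76 and 4.62% over all short models, where 4.05% of the members were below. The rule held the fruiting body median near the young fruiting body level, so shares over all and short models are not a like comparison. In longer models of the same shape, which met the same limits on level, replicate 3 was highest in 73.7%, beside 73.0% of the members. Replicate 3 was at least 4-fold above in 20.4% of them, beside 24.3%, and at least 4-fold below in 1.17%, beside 4.05%. It was the lowest in 14.8% of them, beside 20.3% of the members. The median member stood in replicate 3 at 28.7% of its mycelium level, and in replicates 1 and 2 at 16.7%.

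Replicate 3 lay nearer to the mycelium mean than to the mean of replicates 1 and 2 in 28 members (37.8%), and at or above the lowest mycelium library in 11 (14.9%). The rule kept the fruiting body median below the mycelium mean, so shares over all models or all short models are not a like comparison. Longer models of the same shape met the same limits on level, and neither share was above theirs. The same shares were 41.6 and 17.2% in longer models of the same shape, 46.9 and 76.7% in all short models, and 49.0 and 67.6% in all models. Besides models 2969168 and 1610752, the member with the largest excess in replicate 3 was model 1961725, also at the length limit. It stood at 8.47, 1.75 and 7.41 RPKM in mycelium, 1.60 and 1.17 in young fruiting bodies, and 0.741, 1.12 and 14.3 in fruiting bodies. Its mycelium replicate 2 lay close to the young fruiting bodies, and its fruiting body replicate 3 was the highest of all 8 libraries. The other 8 members with replicate 3 at or above the lowest mycelium library, chosen after their values were seen, had replicate 3 at 3.61 to 121 RPKM. They were models 2988654, 2967561, 3021891, 3004156, 2968340, 2897029, 2889298 and 2739958.

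The opposite was seen in few members. Model 3043257 (485 bases) had replicate 3 farthest below the other fruiting bodies. It stood at 15.9, 24.8 and 17.6 RPKM in mycelium and at 4.70 and 8.35 in young fruiting bodies. Fruiting body replicates 1 and 2 had it at 8.90 and 7.05 RPKM, and replicate 3 at 0.839 RPKM, or 7 unique reads. Models 2889313 and 3031808 were the others at least 4-fold below, with 0.348 and 0.291 RPKM in replicate 3.

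**Figure D4:**
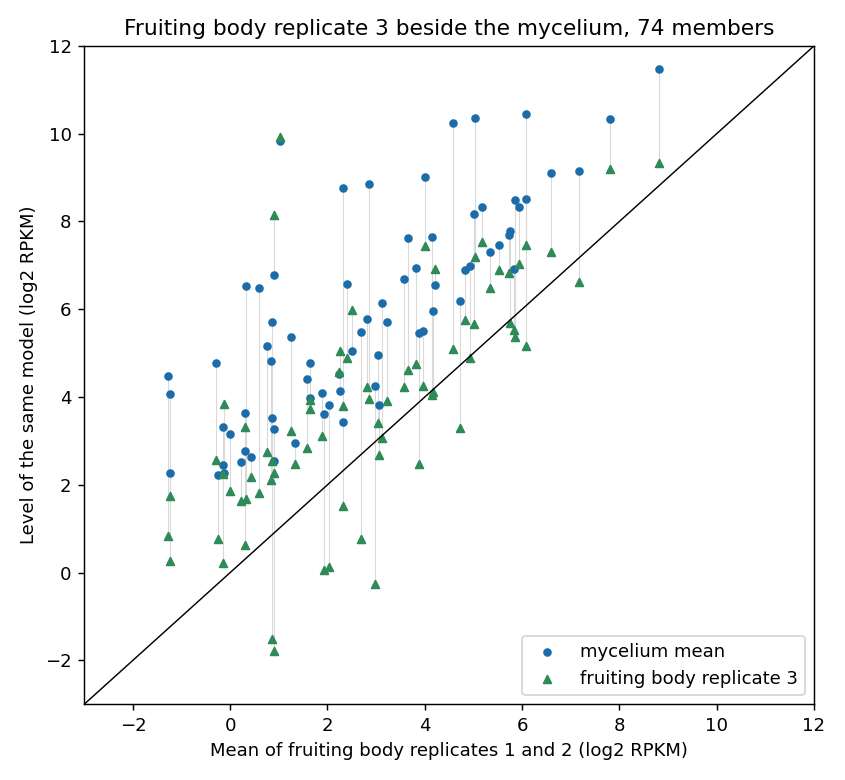
For each of the 74 members the mean of fruiting body replicates 1 and 2 (x axis, log2 RPKM) is plotted against its level in fruiting body replicate 3 (triangles) and its mycelium mean (circles), joined by a grey line, with the diagonal marking equal levels. Most triangles lie above the diagonal and below their circle, and 2 members at low x values have triangles at 9.92 and 8.14.

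The members together took 0.725, 0.610 and 0.634% of the unique reads in mycelium replicates 1, 2 and 3. Their share was 0.0814 and 0.0933% in young fruiting bodies 1 and 2, and 0.0579, 0.0794 and 0.220% in the 3 fruiting body libraries. Without models 2969168 and 1610752 the share in replicate 3 was 0.154%, still above that of every other fruiting library, and the shares in mycelium were 0.669, 0.574 and 0.584%. In bulk tissue, fewer cells that express a model and less RNA of it per cell cannot be told apart.

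**Figure D5:**
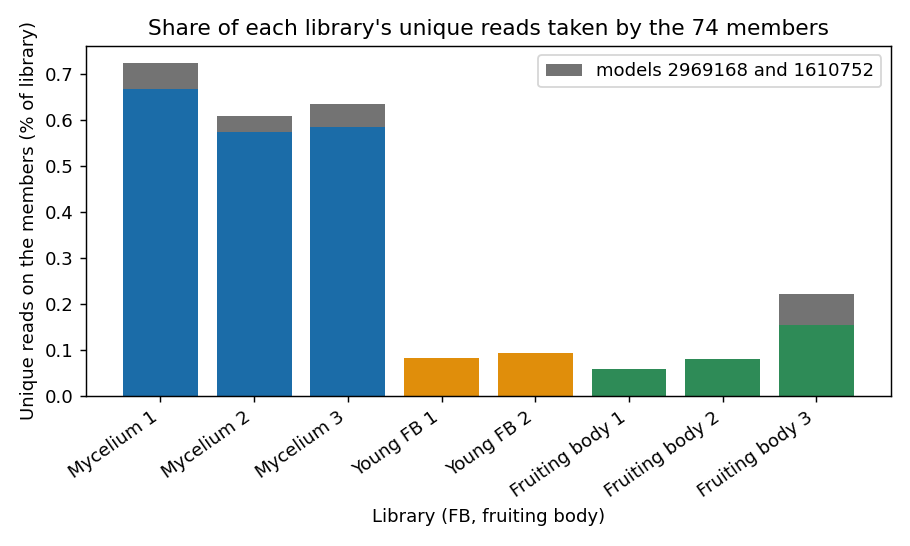
Bars give the percentage of each library's unique reads that fell on the 74 members, coloured by stage, with the part from models 2969168 and 1610752 in grey. Mycelium bars reach 0.610 to 0.725%, the young fruiting bodies and fruiting body replicates 1 and 2 stay below 0.1%, and fruiting body replicate 3 reaches 0.220%.

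The members also differed in how closely replicates of a stage lay together. The SD over the mycelium libraries had a median of 0.42 (log2) in the members, 0.30 in all short models, 0.25 in all models and 0.37 in longer models of the same shape. The mycelium libraries were at least 4-fold apart in 4 members (5.41%), beside 4.18% of all short models. The same held for 2.35% of longer models of the same shape and 1.18% of all models. The widest by SD (log2) were model 2739958 (503 bases), at 14.9, 2.70 and 17.7 RPKM in mycelium, and model 2972627 (330 bases), at 38.4, 73.8 and 250 RPKM. Model 2972627 nevertheless stayed at 1.44 to 3.54 RPKM in all 5 fruiting libraries, below every mycelium library, while model 2739958 reached 3.61 RPKM in fruiting body replicate 3, above its mycelium replicate 2.

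The narrowest spreads in mycelium were those of model 2971321 (441 bases) and of the abundant model 2965982. Model 2971321 stood at 5.60, 5.59 and 5.24 RPKM in mycelium, 1.37 and 0.933 in young fruiting bodies, and 0.902, 0.892 and 1.17 in fruiting bodies. The young fruiting body libraries were at least 2-fold apart in 11 members (14.9%), beside 12.5% of all short models, 11.0% of longer models of the same shape and 6.96% of all models. They were farthest apart in model 3032348 (219 bases), named after its values were seen, with 7.25 and 33.7 RPKM, against 690, 430 and 341 RPKM in mycelium and 5.58 to 15.5 in fruiting bodies. Replicate 2 was the higher of the young fruiting bodies in 44 of 74 members (59.5%), beside 62.7% of longer models of the same shape, 48.0% of all models and 36.2% of all short models.

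The shortest member was model 2911902 (159 bases). It stood at 68.9, 56.4 and 61.3 RPKM in mycelium (62.2 ± 6.28, SD, n = 3), at 16.6 and 24.7 in young fruiting bodies (20.6 ± 5.67, SD, n = 2), and at 18.3, 17.6 and 17.2 in fruiting bodies (17.7 ± 0.535, SD, n = 3). Its mycelium libraries lay well above every fruiting library, and its fruiting bodies lay within the range of its young fruiting bodies.

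Some models lay close to the limits of the rule. At the length limit, model 2900378 (543 bases) met the other limits and was left out. On the fall, model 2903780 was just inside at -1.503 (log2), and model 2881092 just outside at -1.49. On steadiness, model 2989103 was inside at 0.97 and model 2881652 outside at 1.02. On the mycelium level, model 3027988 (4.64 RPKM) was inside at 2.21 and model 2911158 outside at 1.96. Model 2903780 stood at 56.4, 190 and 163 RPKM in mycelium, 32.9 and 54.8 in young fruiting bodies and 43.5, 74.3 and 45.8 in fruiting bodies, so that its fruiting body replicate 2 lay above its mycelium replicate 1. Model 3027988 had 33, 36 and 18 unique reads in mycelium and 4 to 8 in the other libraries.

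Because the rule set the direction, the counts of members that follow stand only beside the background. Every mycelium library lay above both young fruiting body libraries in 74 of 74 members, where 30.2% of all models in the matrix did so. Every mycelium library lay above all 3 fruiting body libraries in 62 members, against 20.7% of all models, and above all 5 fruiting libraries in the same number, 62, against 16.8%. Every mycelium library lay above fruiting body replicates 1 and 2, leaving out replicate 3, in 73 members, against 34.6%. The exception was model 2903780.

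In the fit over all libraries all 74 members passed the filter on low counts. As members had to reach 4 RPKM in mycelium, passing it was not independent of the rule. Of the members, 58 were called lower in young fruiting bodies than in mycelium (edgeR's quasi-likelihood test at an adjusted p below 0.05, Benjamini-Hochberg), where 10.9% of 12510 models tested were called lower. In fruiting bodies against mycelium 58 were called lower, against 13.4%, and 0 members were called higher in either comparison. Both comparisons use the same mycelium libraries. The median log2 fold changes of the members were -2.47 and -2.10, against 0.00 and 0.05 over all models tested. Nothing is read from these counts.

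The calls depended on single libraries, over all models as in the members. Without young fruiting body replicate 1 or 2, 23 and 33 members were called lower in young fruiting bodies, where 2.69 and 4.10% of all models tested were. Without fruiting body replicate 3, which shares the estimate of the spread, 74 were, and 73 in fruiting bodies, where 20.0 and 24.7% of all models were. With the flowcell as a covariate 29 members and 3.29% of all models were called lower in fruiting bodies, a fit in which the fruiting body level rests on replicate 2.

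Between fruiting body and young fruiting body 0 of 74 members were called (edgeR), where 0% of all models tested were. An unadjusted p below 0.05 (edgeR) was found for 4 of 74 members and for 987 of the 12510 models tested. DESeq2 and limma-voom called 0 members, and 242 and 1 of the 12510 models tested. The rule required these stages to be close, so this too is a description. The median log2 fold change of the members in this comparison was 0.33 with all libraries, against 0.04 over all models, and 21 members were below 0. Without fruiting body replicate 3 the direction turned: the median was -0.17, against -0.01 over all models, and 45 members were below 0. In that fit 0 members and 81 of the 12476 models tested were called.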

How the data were processed

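Per the file headers, each deposited per-sample file lists 13602 gene models with their length and 2 counts, of unique gene reads and of all gene reads. The deposited matrix gives log2 values that the authors made for 12746 of these models. They follow log2 of total reads per length within 0.00596 in 99% of values with at least 100 reads, up to a constant for each library, and were read as log2 RPKM. R 3.0.2, limma 3.18.13 and edgeR 3.4.2 were used upstream per the submitters' processing notes, in a role they do not give. The aligner and genome release are not given in the sources used here.

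Unique reads were fitted in R 4.3.3 with edgeR 4.0.16 (filterByExpr, TMM factors, robust quasi-likelihood fit, stage as the only term, all 8 libraries), with Benjamini-Hochberg adjustment over 12510 models. DESeq2 1.42.0 and limma 3.58.1 (limma-voom) were alternatives, and the fit was tested on simulated data. Strand was not kept by the kit, so antisense models that overlap can share reads. The limit at a count of 0 is 3 reads and covers counting error only. Replicates differed beyond sampling noise (67.4 to 315 chi-square per degree of freedom). Separate cultures are not stated, so p-values reflect only the spread between these libraries. SDs are over libraries, on the RPKM scale unless marked log2. An SE was derived by dividing the size of edgeR's log2 fold change by the square root of its quasi-likelihood F statistic. A mean printed with an SD is the arithmetic mean of RPKM. Any other stage mean of a member in RPKM is its mean log2 level taken off the log2 scale.

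The members, their limits and the tests were chosen with earlier results of these data known. Models named were the 6 highest in mycelium, the 6 with the largest fall, and those with fruiting body replicate 3 farthest above (3) or below (1). Others were the 2 widest and 2 narrowest in mycelium by SD (log2), the 2 with most reads not unique, the 2 shortest, and those next to each limit. Gene lists considered beforehand need product names and are not used here.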

Additional observations from a re-analysis of the deposited data

Results flagged for a closer look

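Of 1691 short models in the per-sample files, 350 have no level in the deposited matrix and so could not be members. A signal above the limit that a count of 0 allows (3 reads) was found in 47 of these 350, in total gene reads of at least 1 library, and in 40 of them in unique reads. The highest total was 74 reads in 1 library. Together the 47 models stood at 4.74, 3.67 and 4.06 CPM (total gene reads) in mycelium, at 3.88 and 3.52 CPM in young fruiting bodies, and at 2.15, 3.28 and 11.2 CPM in the 3 fruiting body libraries. In fruiting body replicate 3 only 100 of their 182 total reads were unique. The same counts were 36 of 38 in replicate 1 and 75 of 81 in replicate 2. None of the 350, that is 0, reached a mean of 4 RPKM in mycelium.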

How the results depend on the processing

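The number of members was 74 as given. It was 47 with the fruiting body median within 0.5 of the young fruiting body mean and 46 with models of at most 450 bases, and 54 to 84 with each library left out in turn. With log2 RPKM from unique reads all 74 were found again. Members called lower in young fruiting bodies than in mycelium numbered 58, with 23 to 74 over single libraries left out, and in fruiting bodies 58, with 41 to 73. Of all models, 2.69 to 20.0% and 8.18 to 24.7% were called lower in those same fits. With the flowcell as a covariate 29 were called lower in fruiting bodies, beside 3.29% of all models, where the other flowcell held fruiting bodies only. The cause of the other shifts was not tested. With the replicate number as a block 53 and 58 were called, and 7.91 and 12.7% of all models were called lower. Deviations of same-numbered mycelium and fruiting body libraries correlated at -0.274, 0.200 and -0.101. Those of mycelium and young fruiting bodies correlated at 0.201 and 0.134, and those of young fruiting bodies and fruiting bodies at 0.145 and -0.0952. Over all of these the signs were mixed, so the numbers were not taken as pairs. Between fruiting body and young fruiting body 0 members were called in every setting run.

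For named models near the limits or high in fruiting body replicate 3, the sign of the fruiting body against mycelium log2 fold change reversed for model 1610752 without mycelium replicate 1 (0.01) and without fruiting body replicates 1 (0.21) and 2 (0.29), and for model 1961725 without mycelium replicates 1 (0.21) and 3 (0.10) and fruiting body replicates 1 (0.34) and 2 (0.38). Over the leave-one-out settings these values ran from -6.01 to 0.29 and from -2.64 to 0.38. Neither was called with all libraries (edgeR adjusted p = 0.901 and 0.943, with 5.92e-05 to 0.998 and 0.0138 to 0.962 over the settings). Levels under 10 reads limit 23 members.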
